A study of Mus musculus with 24 samples.

Results

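The naive pluripotency factor genes outside the Klf family were followed in mouse embryonic stem cells (mESCs) as each of the inhibitors of 2i medium was taken away. They are *Nanog*, *Esrrb*, *Tfcp2l1*, *Tbx3*, *Prdm14*, *Zfp42*, *Nr0b1*, *Nr5a2*, *Fbxo15* and *Tcl1*, taken by symbol, and make up 10 of the 35022 genes in the count table of the PD03 removal experiment and 10 of the 48709 genes in that of the CHIRON removal experiment. The cells were E14 mESCs, a single established line whose strain and genotype are labelled 129m wt, plated on soft or stiff StemBond hydrogels, which are polyacrylamide gels that carry covalently bound fibronectin. All groups were first kept for 12 h in 2i + LIF with 1 µM PD03 and 3 µM CHIRON, and the cells taken at that point are the 0 h controls. In PD03 removal the medium was changed to CHIRON + LIF, in CHIRON removal it was changed to PD03 + LIF, and RNA was sequenced after 2 h and 12 h, so that LIF was present in every group. Each experiment had its own 0 h libraries, which gives 12 groups of 2 replicates, and the labels do not say that replicates came from separate cultures, so p-values measure the spread between these libraries. With 2 libraries against 2, groups can lie apart for a gene that did not change, and such separation was not counted over all genes.

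Naive pluripotency is the state of the preimplantation epiblast, and cultured mESCs hold it through a network of transcription factors in which each factor is fed by several signals. PD03 inhibits MEK and so blocks the FGF to ERK signal that drives exit from this state. CHIRON inhibits GSK3, which stabilises β-catenin and relieves repression by Tcf7l1 at naive genes, *Esrrb* being the best known of these. LIF activates Stat3, for which *Tfcp2l1* and the Klf genes are well known effectors, and *Tbx3* is fed by a PI3K branch of the same signal.

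The comparison asked how the same genes responded to losing the one inhibitor or the other on each substrate. Library totals ran from 16222196 to 26442153 counts in PD03 removal and from 19393787 to 31111260 counts in 11 libraries of CHIRON removal. Replicate 1 of the stiff 2 h group of CHIRON removal held only 171333 counts, with 56.7% of them in protein-coding genes, and was left out, so that group is 1 library. Replicates were closer in PD03 removal than in CHIRON removal: the common biological coefficient of variation was 0.0386 in the former and 0.0797 in the latter. In CHIRON removal the 12 h soft libraries differed in their share of protein-coding counts, which was 85.3% in replicate 1 and 78.0% in replicate 2. By the chi-square of counts between replicates per degree of freedom, the stiff 0 h pair of that experiment differed most (19.7), followed by the soft 12 h pair (13.6). The members themselves, as markers of naive cells, lay between 30.7 and 2549 CPM (counts scaled to the TMM-normalised library size) in every library used. Among markers of other cells, summed levels were at most 6.78 CPM for the fibroblast list and 17.3 CPM for the primitive endoderm list (6 of 6 genes in the tables for each, none at 0 throughout). The summed level of the mesoderm and primitive streak list (4 of 4 genes in the table, none at 0) went from between 15.6 and 18.9 CPM at 0 h to between 46.0 and 56.3 CPM at 12 h of PD03 removal. In CHIRON removal the same list went from between 19.4 and 22.4 CPM to between 9.08 and 12.0 CPM, while the neuroectoderm list (4 of 4 genes, none at 0) went from between 13.9 and 17.7 CPM to between 27.6 and 31.4 CPM. The neuroectoderm list of PD03 removal went from between 7.90 and 8.43 CPM to between 9.57 and 12.5 CPM. The trophoblast list (4 of 4 genes) went from between 13.5 and 15.9 CPM to between 17.6 and 21.2 CPM in PD03 removal and from between 12.15 and 14.6 CPM to between 17.4 and 25.2 CPM in CHIRON removal. These sums do not show every gene of a list moving. In CHIRON removal 3 trophoblast genes were tested, and 1 was higher and 1 lower at 12 h on each substrate (edgeR adjusted p under 0.05). In PD03 removal only 1 was tested, and it was higher on both. Of 2 neuroectoderm genes tested, 1 was higher on each substrate in CHIRON removal, and in PD03 removal 1 was higher on stiff substrates only. Of 3 mesoderm and primitive streak genes tested, 2 were higher on each substrate in PD03 removal. In CHIRON removal 1 of these 3 was lower on soft and 2 were lower on stiff substrates. Genes of cleavage-stage-like cells (3 of 3) went from between 121 and 135 CPM to between 72.6 and 82.9 CPM in PD03 removal, and the 1 of them in the CHIRON removal table went from between 39.2 and 48.1 CPM to between 34.4 and 44.4 CPM. The part of these cells in the results was not tested, and in bulk RNA fewer cells of a type and less RNA per cell cannot be told apart.

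After 12 h, several naive factor genes had moved in opposite directions in the 2 removals, each measured against its own 0 h libraries. Each removal belongs to its own experiment, so the effect of the inhibitor lost cannot be told apart from a difference between the experiments. *Nanog*, *Prdm14*, *Zfp42*, *Fbxo15* and *Tcl1* fell after PD03 removal on both substrates, and *Nanog* and *Fbxo15* rose after CHIRON removal on both. *Nr0b1* did the reverse, rising without PD03 and falling without CHIRON, and *Tfcp2l1* was the only member that passed the test in the same direction after both removals, falling each time. *Esrrb* passed the test after CHIRON removal and not after PD03 removal, while *Tbx3* on both substrates and *Nr5a2* on stiff ones passed after PD03 removal and not after CHIRON removal; the differences themselves are tested further on. In counts, PD03 removal raised 2 members and lowered 6 on soft substrates (edgeR quasi-likelihood test, Benjamini-Hochberg adjusted p under 0.05), where 14.1% of the 13405 genes tested rose and 15.3% fell, and raised 3 and lowered 6 on stiff substrates, where 18.5% of genes rose and 19.9% fell. CHIRON removal raised 3 and lowered 3 on soft substrates, against 9.18% and 8.63% of the 14615 genes tested, and raised 4 and lowered 3 on stiff substrates, against 8.46% and 8.33%.

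Genes called after both removals in opposite directions numbered 4 of the 10 members on soft substrates (*Nanog*, *Prdm14*, *Nr0b1* and *Fbxo15*), against 4.06% of 13160 genes tested in both experiments. On stiff substrates they numbered 5 (*Nanog*, *Zfp42*, *Nr0b1*, *Fbxo15* and *Tcl1*), against 4.57% of genes. Calls in the same direction were those of *Tfcp2l1* alone on each substrate, against 3.97% of genes on soft and 5.00% on stiff. The genes behind these shares were not matched to the members in level, and the members were chosen with earlier results of these data known. The median log2 fold change of the 10 members was -0.27 on soft and -0.37 on stiff substrates after PD03 removal. After CHIRON removal it was 0.0067 and 0.13, and the median over all genes tested lay between -0.014 and -0.0014 in all 4 comparisons. The changes were moderate: the largest member response was 0.83 (log2) without PD03 and 0.76 without CHIRON, below the 95th percentile of absolute log2 changes over all genes, which lay between 0.90 and 1.28. The CHIRON removal counts were less stable than those of PD03 removal. Of 6 members called on soft substrates 3 were left without either soft 0 h library and 4 without soft 12 h replicate 2, and of 7 called on stiff substrates 4 were left without stiff 0 h replicate 2 or stiff 12 h replicate 2 and 3 without stiff 12 h replicate 1. These calls also rest on the exclusion of the 171333-count library. With it included, 0 members were called at 12 h on either substrate, although the log2 fold change of *Nanog*, for example, was still 0.63 on soft and 0.77 on stiff substrates (SE 1.18 for each).

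**Figure D1:**
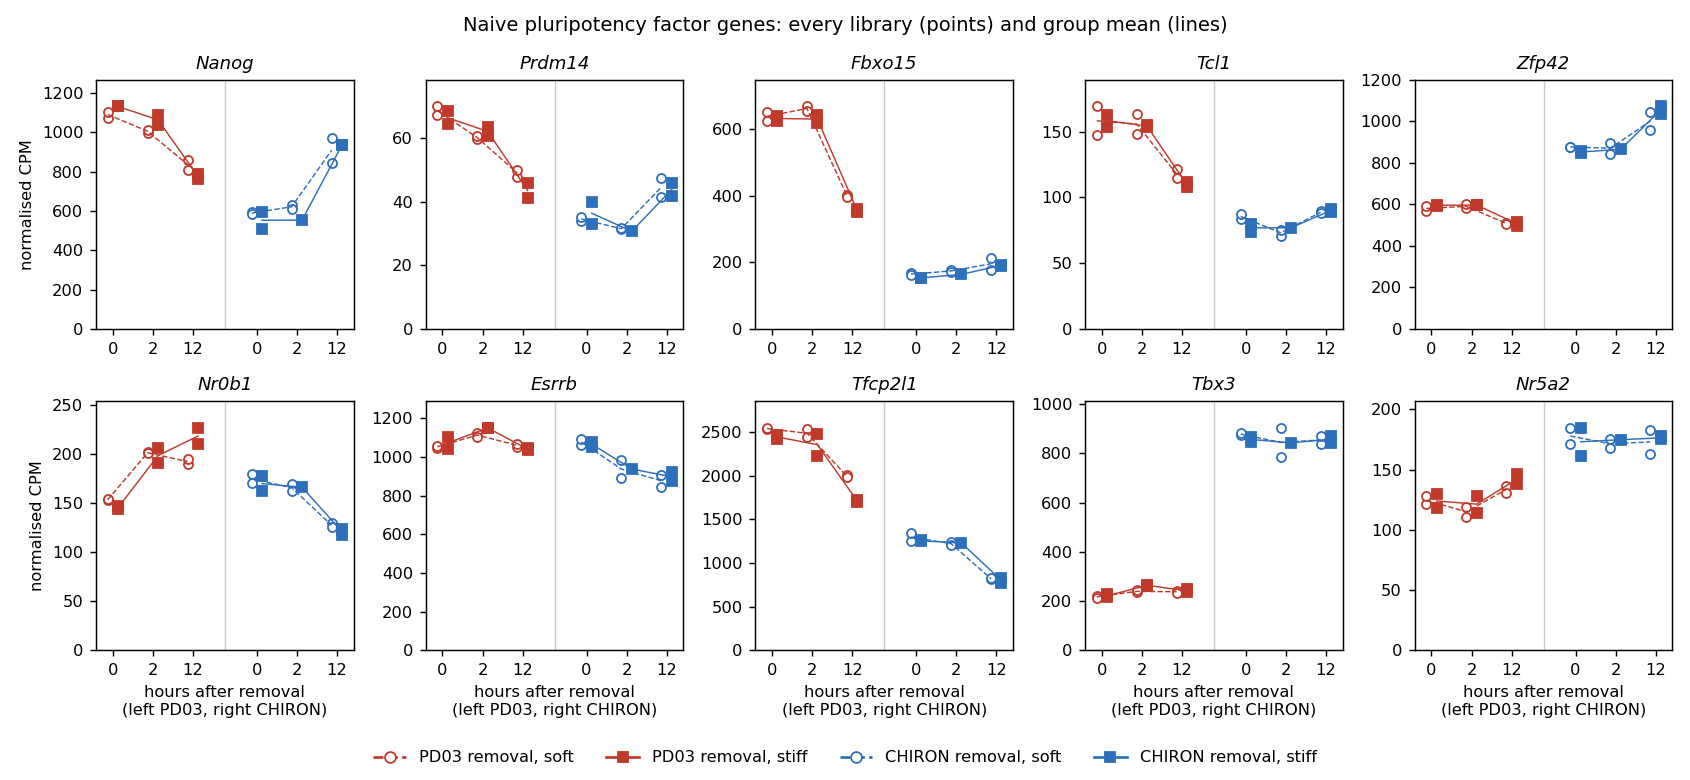
Level in TMM-normalised CPM (vertical axis, from 0) of each of the 10 genes in every library used at 0, 2 and 12 h after the medium change (evenly spaced, not to scale), PD03 removal at the left and CHIRON removal at the right of each panel. Open circles and dashed lines are soft substrates, filled squares and solid lines are stiff ones, points are single libraries and lines join group means; *Nanog* is seen to fall from between 1075 and 1132 CPM to between 763 and 861 CPM without PD03 and to rise from between 509 and 597 CPM to between 845 and 972 CPM without CHIRON.

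*Nanog*, the homeodomain factor whose level sets how firmly mESCs self-renew, gave the largest contrast between the removals. The gene lies on mouse chromosome 6 from 122707489 to 122714633 (GRCm38, plus strand). On soft substrates its level was 1075 and 1105 CPM at 0 h and 810.2 and 861 CPM after 12 h without PD03. On stiff substrates it was 1132 and 1131 CPM at 0 h and 788 and 763 CPM at 12 h. Both 12 h libraries lay below both controls on each substrate, with log2 fold changes of -0.38 ± 0.040 (SE, n = 2 against 2) and -0.55 ± 0.040 (edgeR adjusted p = 2.0e-08 and 1.0e-11). Without CHIRON the soft libraries went from 593 and 585 CPM to 845 and 972 CPM. The stiff libraries went from 597 and 509 CPM to 937 and 934 CPM. Here both 12 h libraries lay above both controls on each substrate, and the rise was 0.63 ± 0.090 on soft and 0.76 ± 0.090 on stiff substrates (log2, SE; edgeR adjusted p = 7.8e-05 and 9.7e-06). *Nanog* kept these calls when any single library of the groups compared was left out.

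The 250 bases before the *Nanog* start are given below because *Nanog* had the largest difference between the removals. The following 2 are given because *Nr0b1* was already called at 2 h and *Esrrb* fell after CHIRON removal. The sequences are from RefSeq (GRCm38.p6), read 5′ to 3′ in the direction of the gene, and capitals mark a match to a searched motif.
Nanog, chr6:122707239-122707488, plus strand: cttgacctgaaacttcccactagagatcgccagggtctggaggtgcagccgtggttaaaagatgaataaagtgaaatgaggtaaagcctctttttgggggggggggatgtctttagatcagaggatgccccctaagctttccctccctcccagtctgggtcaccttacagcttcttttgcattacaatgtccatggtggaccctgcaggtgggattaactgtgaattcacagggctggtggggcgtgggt
Nr0b1, chrX:86191525-86191763, plus strand: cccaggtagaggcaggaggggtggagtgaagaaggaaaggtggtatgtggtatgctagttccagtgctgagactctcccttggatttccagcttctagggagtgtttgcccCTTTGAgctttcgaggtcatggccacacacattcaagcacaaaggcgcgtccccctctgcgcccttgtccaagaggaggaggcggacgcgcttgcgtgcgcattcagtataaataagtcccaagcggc
Esrrb, chr12:86360867-86361116, plus strand: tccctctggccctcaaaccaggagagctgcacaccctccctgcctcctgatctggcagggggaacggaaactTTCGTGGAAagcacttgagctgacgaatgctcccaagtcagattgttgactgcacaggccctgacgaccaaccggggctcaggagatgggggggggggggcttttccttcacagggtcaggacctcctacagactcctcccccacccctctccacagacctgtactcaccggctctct
The motifs searched on both strands were the Tcf/Lef core CTTTGA, the Esrrb site TCAAGGTCA, the Stat site TTCNNNGAA, the Ets site CCGGAAGT and the Klf site CCACACCC, in windows of 250 bases before to 50 after each start. The capitals in *Nr0b1* are a Tcf/Lef core on the strand of the gene, 139 bases before the RefSeq start, which lies a little downstream of the annotated start of the gene given below, and such a core is present in 5257 of the 32851 windows. The capitals in *Esrrb* are a Stat match 178 bases before the start, a motif that reads alike on both strands and is present in 8.30% of windows. *Zfp42* held a Klf match 75 bases before its start, as did 3.56% of windows, and no member window held the Ets site (3.89% of windows) or the Esrrb site (0.423%). A match describes these letters only. Windows were available for 7 members and not for *Tbx3*, *Prdm14* and *Fbxo15*.

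*Prdm14*, a PR-domain protein that restrains FGF receptor signalling and DNA methylation in naive cells, moved as *Nanog* did at a far lower level. Without PD03 it went from 67.5 and 70.02 CPM to 47.9 and 50.2 CPM on soft substrates. The stiff libraries went from 64.3 and 68.6 CPM to 46.0 and 41.1 CPM. Both 12 h libraries lay below both controls on each substrate, a fall of 0.49 and 0.61 on the log2 scale (SE 0.068 and 0.070; edgeR adjusted p = 2.7e-06 and 6.1e-08). Without CHIRON it went from 34.1 and 35.1 CPM to 41.6 and 47.6 CPM on soft substrates. On stiff substrates the controls were 39.8 and 33.0 CPM and the 12 h libraries 45.8 and 41.9 CPM. The groups did not overlap on either substrate. The soft change passed the test (log2 fold change 0.36 ± 0.11, adjusted p = 0.024 in edgeR) and the stiff change did not (0.27 ± 0.11, adjusted p = 0.097). The soft call was lost without soft 0 h replicate 1, soft 0 h replicate 2 or soft 12 h replicate 2 of CHIRON removal (adjusted p = 0.11, 0.099 and 0.19), and the stiff value was called without stiff 0 h replicate 1 (0.41, adjusted p = 0.030).

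*Zfp42*, also called Rex1, encodes a zinc finger protein and is a standard reporter of naive mESCs. Its level without PD03 went from 569.9 and 592 CPM to 511 and 506 CPM on soft substrates. On stiff substrates it went from 599 and 593 CPM to 497 and 517 CPM. The fall was small but free of overlap on both, 0.19 and 0.23 on the log2 scale (SE 0.041 for each; edgeR adjusted p = 0.00072 and 4.9e-05). Without CHIRON the soft controls were at 876 and 878 CPM and the 12 h libraries at 1046 and 957 CPM. On stiff substrates the controls were at 849 and 856 CPM and the 12 h libraries at 1072 and 1038 CPM. All 12 h libraries were above all controls of their substrate. The difference passed the test on stiff substrates (log2 fold change 0.31 ± 0.078, edgeR adjusted p = 0.011) and not on soft ones (0.19 ± 0.078, adjusted p = 0.11, and 0.045 with DESeq2), and leaving out stiff 12 h replicate 1 ended the stiff call (adjusted p = 0.079). The processed pseudogenes Nanog-ps1, Nanog-ps2 and Zfp42-ps1 resemble *Nanog* and *Zfp42*, and reads shared with them make both levels uncertain.

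*Esrrb*, *Nr5a2* and *Nr0b1* encode orphan nuclear receptors and did not move together. *Esrrb*, which binds many of the same enhancers as Nanog and is a main target of the GSK3 branch, had levels of 1046 and 1058 CPM at 0 h and 1050.1 and 1069 CPM at 12 h on soft substrates without PD03. The stiff libraries had 1103 and 1042 CPM at 0 h and 1035 and 1044 CPM at 12 h. These groups overlapped, and the 95% confidence intervals of the log2 fold change were narrow, from -0.07 to 0.09 on soft and from -0.12 to 0.03 on stiff substrates. Without CHIRON the soft libraries went from 1059 and 1094 CPM to 845 and 907 CPM. The stiff libraries went from 1053 and 1079 CPM to 919.8 and 874 CPM. All 12 h libraries lay below all controls of their substrate, with log2 fold changes of -0.30 ± 0.081 and -0.25 ± 0.081 (SE; edgeR adjusted p = 0.016 and 0.043). These calls were close to the threshold. In a fit of all genes and in a fit of only the groups compared the stiff call did not hold. The soft call was lost without soft 0 h replicate 1, soft 0 h replicate 2 or soft 12 h replicate 1 (adjusted p = 0.11, 0.13 and 0.13), and the stiff call was lost when any of the 4 stiff 0 h and 12 h libraries was left out (adjusted p = 0.080 to 0.25) and with the replicate block (adjusted p = 0.077).

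*Nr0b1*, also called Dax1, encodes a receptor without the usual DNA-binding domain that acts mainly as a corepressor. At 12 h its response was opposite in direction to that of *Nanog* after each removal. The gene lies on chromosome X from 86191764 to 86195947 (GRCm38, plus strand). Without PD03 its soft libraries held 153 and 154 CPM at 0 h, 202 and 201 CPM at 2 h and 189 and 195 CPM at 12 h. Its stiff libraries held 144 and 147 CPM at 0 h, 206 and 191 CPM at 2 h and 227 and 209.9 CPM at 12 h. Every library after the change was above every control of its substrate. The 12 h rise was 0.33 ± 0.051 on soft and 0.59 ± 0.051 on stiff substrates (log2, SE; edgeR adjusted p = 1.3e-05 and 2.3e-10). Without CHIRON its level on soft substrates went from 169.9 and 179 CPM to 129 and 126 CPM at 12 h. On stiff substrates it went from 163 and 177 CPM to 124 and 118 CPM. The 12 h libraries were below the controls on both substrates, by 0.45 ± 0.075 and 0.49 ± 0.075 (a fall in log2, SE; edgeR adjusted p = 0.00031 and 0.00015), and *Nr0b1* kept its 12 h calls in both experiments when any single library of the groups compared was left out.

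*Nr5a2*, also called Lrh1, encodes a receptor that activates *Pou5f1* and *Nanog*. Its soft libraries without PD03 went from 121 and 128 CPM to 136 and 131 CPM, which did not overlap but did not pass the test (log2 fold change 0.10 ± 0.060, edgeR adjusted p = 0.21). Its stiff libraries went from 129.6 and 118 CPM to 138 and 146 CPM, a rise of 0.20 ± 0.060 (adjusted p = 0.0100). That call was lost without stiff 0 h replicate 2 or without stiff 12 h replicate 2 of PD03 removal (adjusted p = 0.19 and 0.12). In CHIRON removal all 8 libraries at 0 h and 12 h lay between 162 and 185 CPM, the groups overlapped on both substrates, and the 95% confidence interval of the log2 fold change was -0.22 to 0.14 on soft and -0.15 to 0.20 on stiff substrates.

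*Tfcp2l1*, the grainyhead-like factor through which LIF and Stat3 signalling supports self-renewal, was lower after the loss of either inhibitor. Without PD03 it went from 2532 and 2549 CPM to 2003 and 1984 CPM on soft substrates. The stiff libraries went from 2419.8 and 2468 CPM to 1695 and 1723 CPM. Without CHIRON the soft libraries went from 1254 and 1339.7 CPM to 812 and 828 CPM. The 12 h libraries were below the controls in each case, and the stiff libraries of CHIRON removal did likewise, from 1248 and 1258 CPM to 833 and 767 CPM. Without PD03 the log2 fold change on soft and then stiff substrates was -0.35 ± 0.040 and -0.52 ± 0.040 (SE; edgeR adjusted p = 8.0e-08 and 2.5e-11). Without CHIRON it was -0.66 ± 0.079 and -0.65 ± 0.079 (adjusted p = 1.1e-05 and 1.3e-05). These 4 calls were also kept when any single library of the groups compared was left out.

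*Tbx3*, a T-box factor that can hold mESCs undifferentiated when LIF is absent, changed little at 12 h. Without PD03 its soft libraries held 222 and 212 CPM at 0 h and 241 and 235 CPM at 12 h. Its stiff libraries held 227 and 215 CPM at 0 h and 247 and 236 CPM at 12 h. The groups did not overlap, and the log2 fold changes of 0.13 on each substrate (SE 0.048 for each) gave edgeR adjusted p = 0.038 on soft and 0.033 on stiff substrates. The soft call was lost without soft 0 h replicate 2, soft 12 h replicate 1 or soft 12 h replicate 2 of PD03 removal (adjusted p = 0.24, 0.19 and 0.070) and with DESeq2 (0.051). The stiff call was lost without stiff 0 h replicate 2 or stiff 12 h replicate 1 (adjusted p = 0.29 and 0.26) and with no filter on low counts (0.053). In CHIRON removal the level of *Tbx3* at 0 h and 12 h was between 837 and 884 CPM in all 8 libraries. The groups overlapped on stiff substrates, while on soft ones the 12 h libraries at 837 and 872 CPM lay just below the controls at 873 and 884 CPM, and the 95% confidence intervals of the log2 fold change were -0.21 to 0.13 on soft and -0.17 to 0.17 on stiff substrates. *Tbx3* shares 115 bases of exon with the antisense gene Tbx3os1, and since the strand setting of the counting is not given in the sources used here, reads from this stretch cannot be assigned to either.

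The remaining pair are not transcription factors. *Fbxo15*, an F-box protein gene known as an Oct4 and Sox2 target that is dispensable for self-renewal, had the largest response of any member to PD03 removal. Its soft libraries went from 626 and 652 CPM to 402 and 398 CPM. Its stiff libraries went from 639 and 626 CPM to 350.3 and 359 CPM. The groups lay far apart, with 62.6% of the control level left on soft and 56.1% on stiff substrates (log2 fold change -0.67 ± 0.042 and -0.83 ± 0.042, SE; edgeR adjusted p = 5.1e-13 and 2.7e-15). Without CHIRON it went from 167 and 162 CPM to 178 and 214 CPM on soft substrates. On stiff substrates it went from 154 and 153 CPM to 192 and 190.2 CPM. Both 12 h libraries were above both controls on each substrate, with log2 fold changes of 0.25 ± 0.083 and 0.32 ± 0.083 (edgeR adjusted p = 0.045 and 0.013). In a fit of all genes and in a fit of only the groups compared the soft call did not hold. The soft call was lost without soft 0 h replicate 1, soft 0 h replicate 2 or soft 12 h replicate 2 (adjusted p = 0.10, 0.23 and 0.45) and with the replicate block (adjusted p = 0.074). The stiff call was lost without stiff 0 h replicate 2, stiff 12 h replicate 1 or stiff 12 h replicate 2 (adjusted p = 0.051, 0.072 and 0.069).

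*Tcl1*, a coactivator of the kinase Akt, went from 147 and 169 CPM to 121 and 114 CPM on soft substrates without PD03. The stiff libraries went from 163 and 154 CPM to 108 and 112 CPM. The fall was free of overlap on both, 0.42 and 0.53 on the log2 scale (SE 0.060 and 0.061; edgeR adjusted p = 3.3e-06 and 6.2e-08). Without CHIRON its soft libraries held 83.6 and 87.4 CPM at 0 h and 89.3 and 88.1 CPM at 12 h, without overlap, a difference that did not pass the test (0.053 ± 0.077, adjusted p = 0.70). Its stiff libraries went from 79.6 and 74.1 CPM to 89.2 and 91.1 CPM. The log2 fold change of 0.23 ± 0.078 had an adjusted p of 0.050, just inside the threshold, and the call was lost when any of the 4 stiff 0 h and 12 h libraries was left out (adjusted p = 0.061 to 0.23), with DESeq2 (0.060) and with the replicate block (0.078). The paralogs Tcl1b1 to Tcl1b5 lie on the same chromosome, and reads shared with them could shift these levels.

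**Figure D2:**
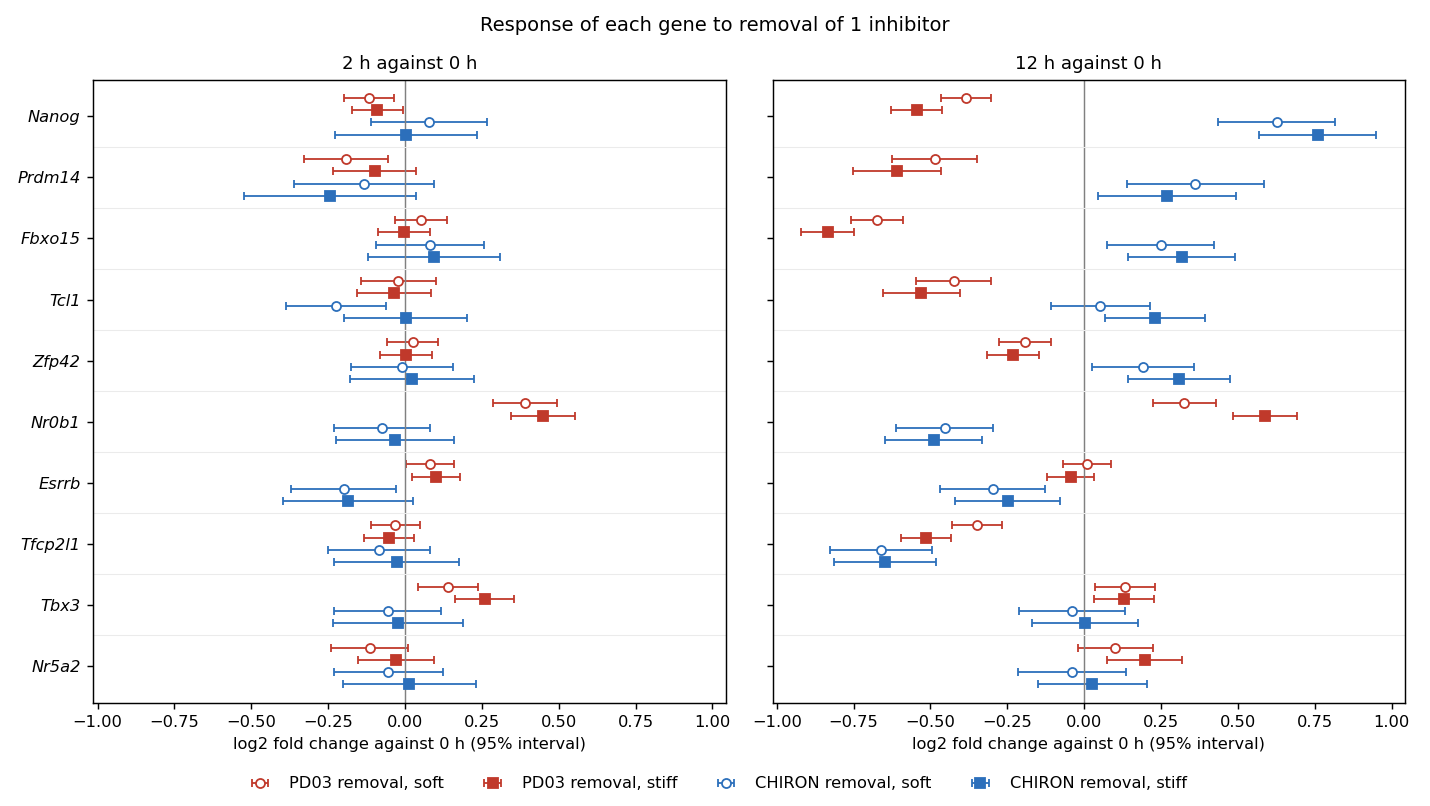
Log2 fold change (horizontal axis) of each of the 10 genes at 2 h and at 12 h against 0 h, after PD03 removal (red) and CHIRON removal (blue) on soft (open circles) and stiff (filled squares) substrates, as edgeR estimates with 95% confidence intervals. At 12 h *Nanog* lies at -0.38 and -0.55 without PD03 and at 0.63 and 0.76 without CHIRON, while *Tfcp2l1* lies below 0 in all 4.

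The responses to the 2 removals were then subtracted in a joint fit of the 23 libraries, in which each response is measured against the 0 h libraries of its own experiment. Removal and experiment coincide in this difference, and the experiments already differed at 0 h. On soft substrates the mean of *Nanog* went from 1090 to 836 CPM without PD03 and from 589 to 909 CPM without CHIRON, so the levels came closer. Those of *Zfp42* moved apart, from 581 to 508 CPM and from 877 to 1001 CPM. A negative value means that the gene was lower after PD03 removal than after CHIRON removal, relative to 2i + LIF. On soft substrates 8 of the 10 members differed at 12 h, 3 of them higher and 5 lower, where 10.5% of the 14742 genes tested were higher and 10.5% lower. On stiff substrates 6 differed, 1 higher and 5 lower, against 12.4% and 11.1% of genes. The median difference of the members was -0.13 (log2) on soft and -0.21 on stiff substrates, and that of all genes was 0.0072 and 0.013.

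*Nanog* and *Fbxo15* had the largest negative differences. The fold change of *Nanog* without PD03 was 49.5% of its fold change without CHIRON on soft substrates (log2 difference -1.01, 95% confidence interval -1.21 to -0.81, edgeR adjusted p = 9.1e-09). On stiff substrates it was 40.5% (-1.30, interval -1.50 to -1.10, adjusted p = 8.1e-11). For *Fbxo15* the log2 differences were -0.93 (interval -1.12 to -0.74) and -1.15 (interval -1.34 to -0.96). *Prdm14* had -0.85 (interval -1.10 to -0.60) and -0.88 (interval -1.13 to -0.62). *Tcl1* had -0.48 (interval -0.68 to -0.28) and -0.76 (interval -0.96 to -0.56), and *Zfp42* had -0.39 (interval -0.55 to -0.22) and -0.54 (interval -0.70 to -0.38). These 5 genes, coding for 3 transcription regulators, an F-box protein and an Akt coactivator, were all lower on both substrates.

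In the other direction, *Nr0b1* had log2 differences of 0.78 (interval 0.59 to 0.96, edgeR adjusted p = 3.2e-07) on soft and 1.08 (interval 0.89 to 1.27, adjusted p = 8.1e-10) on stiff substrates. *Tfcp2l1* had 0.31 (interval 0.14 to 0.48, adjusted p = 0.0091) on soft substrates, where both responses were falls and that to CHIRON removal was the larger. On stiff substrates its difference of 0.13 (interval -0.040 to 0.31) did not pass. *Esrrb* had 0.30 (interval 0.13 to 0.48, adjusted p = 0.0095) on soft substrates and 0.21 (interval 0.034 to 0.38, adjusted p = 0.076) on stiff ones, where DESeq2 (adjusted p = 0.041) and limma voom called it. For *Tbx3* the intervals were -0.016 to 0.35 and -0.055 to 0.31, and for *Nr5a2* they were -0.085 to 0.36 and -0.051 to 0.39, so that neither was called on either substrate.

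The member counts of 8 on soft and 6 on stiff substrates were the same when any single library of the groups compared was left out. With the 171333-count library included, 1 member (*Prdm14*, adjusted p = 0.0032) was called on soft substrates and 2 (*Prdm14*, adjusted p = 0.0023, and *Tcl1*, adjusted p = 0.034) on stiff substrates, with log2 differences of -1.01 and -1.30 for *Nanog* as before but standard errors of 1.09 for each.

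**Figure D3:**
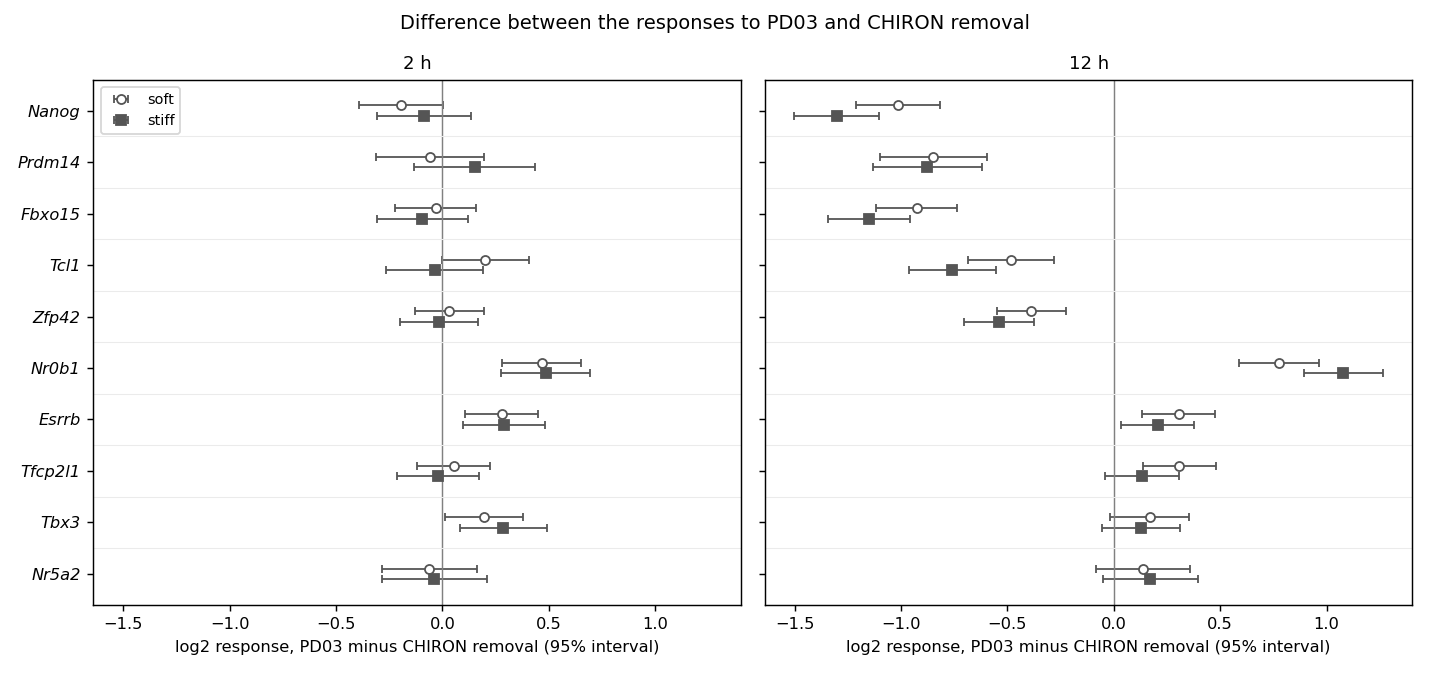
Difference between the responses at 2 h and at 12 h (log2, PD03 removal minus CHIRON removal, horizontal axis) for each of the 10 genes on soft (open circles) and stiff (filled squares) substrates, as estimates of the joint edgeR fit with 95% confidence intervals. At 12 h *Nanog* sits lowest at -1.01 and -1.30 and *Nr0b1* highest at 0.78 and 1.08.

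At 2 h few members passed the test. PD03 removal raised *Nr0b1* on both substrates, and this was the only member called on soft substrates, where 1.96% of genes were called, while *Nr0b1* and *Tbx3* were called on stiff substrates, where 2.73% were. At an unadjusted p under 0.05 there were 5 members on soft and 4 on stiff substrates, among 1585 and 1775 of the 13405 genes tested. The *Nr0b1* rise at 2 h was 0.39 ± 0.051 on soft and 0.45 ± 0.051 on stiff substrates (log2, SE; edgeR adjusted p = 8.7e-06 and 3.7e-07), from the per-library levels given above. *Tbx3* at 2 h held 235 and 243 CPM on soft substrates (0.14 ± 0.048 against 0 h, adjusted p = 0.17). On stiff substrates it held 266 and 262 CPM, a rise of 0.26 ± 0.047 (adjusted p = 0.00086) whose call was lost without stiff 0 h replicate 2 of PD03 removal (adjusted p = 0.059). The 2 h stiff libraries were the highest of all *Tbx3* values in that experiment.

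CHIRON removal gave no called member at 2 h on either substrate in edgeR or in DESeq2, against 0.226% of all genes on soft and 0.103% on stiff substrates; at an unadjusted p under 0.05 there were 2 members on soft and 0 on stiff substrates, among 1328 and 1019 of the 14615 genes tested. *Nr0b1* held 169.6 and 162 CPM on soft substrates and 166 CPM in the single stiff library, with log2 fold changes of -0.076 and -0.032. The lowest value was that of *Prdm14* on stiff substrates, at -0.25 ± 0.13. In the difference between removals at 2 h only *Nr0b1* was called, at 0.47 on soft (interval 0.28 to 0.65, adjusted p = 0.0065) and 0.49 on stiff substrates (interval 0.28 to 0.69, adjusted p = 0.012), where 0.814% and 0.780% of genes were called. The stiff 2 h group of CHIRON removal is 1 library, so the stiff test assumes that it varies as the other groups do. With the 171333-count library included neither call held (0.46, adjusted p = 1.00 on soft and 0.78, adjusted p = 0.84 on stiff substrates). The soft call was lost without soft 0 h replicate 1 of PD03 removal (adjusted p = 0.057), and the stiff call without stiff 0 h replicate 1 or stiff 2 h replicate 1 of PD03 removal (adjusted p = 0.068 and 0.091). *Esrrb* had differences of 0.28 and 0.29 that did not pass (adjusted p = 0.13 and 0.18). The soft value was called with DESeq2, with limma voom and without soft 2 h replicate 1 of CHIRON removal.

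Levels on soft and stiff substrates were next compared directly at each time. In 2i + LIF no member differed in either experiment in edgeR, and none had an unadjusted p under 0.05, where 0.0298% of genes were called in PD03 removal and 0% in CHIRON removal. The 95% confidence intervals of all members at 0 h lay between -0.14 and 0.18 (log2, soft against stiff) in the PD03 removal libraries and between -0.30 and 0.32 in those of CHIRON removal. At 2 h of PD03 removal no member was called either, against 0.134% of genes, and 1 had an unadjusted p under 0.05, among 1151 of the 13405 genes. At 12 h *Tfcp2l1* (0.22 ± 0.040, adjusted p = 0.0036) and *Fbxo15* (0.17 ± 0.042, adjusted p = 0.043) were higher on soft substrates, against 0.776% of genes called. At an unadjusted p under 0.05 there were 5 members, among 1296 genes. *Fbxo15* lost this call without any 1 of the 4 libraries at 12 h (adjusted p = 0.19 to 0.33). *Tfcp2l1* lost it without soft 12 h replicate 1, stiff 12 h replicate 1 or stiff 12 h replicate 2 (adjusted p = 0.054, 0.089 and 0.059).

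In CHIRON removal no member differed between substrates at 2 h or 12 h in edgeR or at an unadjusted p under 0.05, and 0% of genes were called at each time. For *Tfcp2l1* and *Fbxo15* the 12 h intervals there were -0.13 to 0.20 and -0.14 to 0.21. The 12 h response itself differed between substrates for 0 members and 0% of genes in each experiment. At an unadjusted p under 0.05 there were 4 members in PD03 removal, among 899 genes of all those tested, and 0 in CHIRON removal, among 415 genes. The 4 were *Nanog* (0.16, soft minus stiff), *Tfcp2l1* (0.17), *Fbxo15* (0.16) and *Nr0b1* (-0.26). In each of them the response was the smaller on soft substrates.

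**Figure D4:**
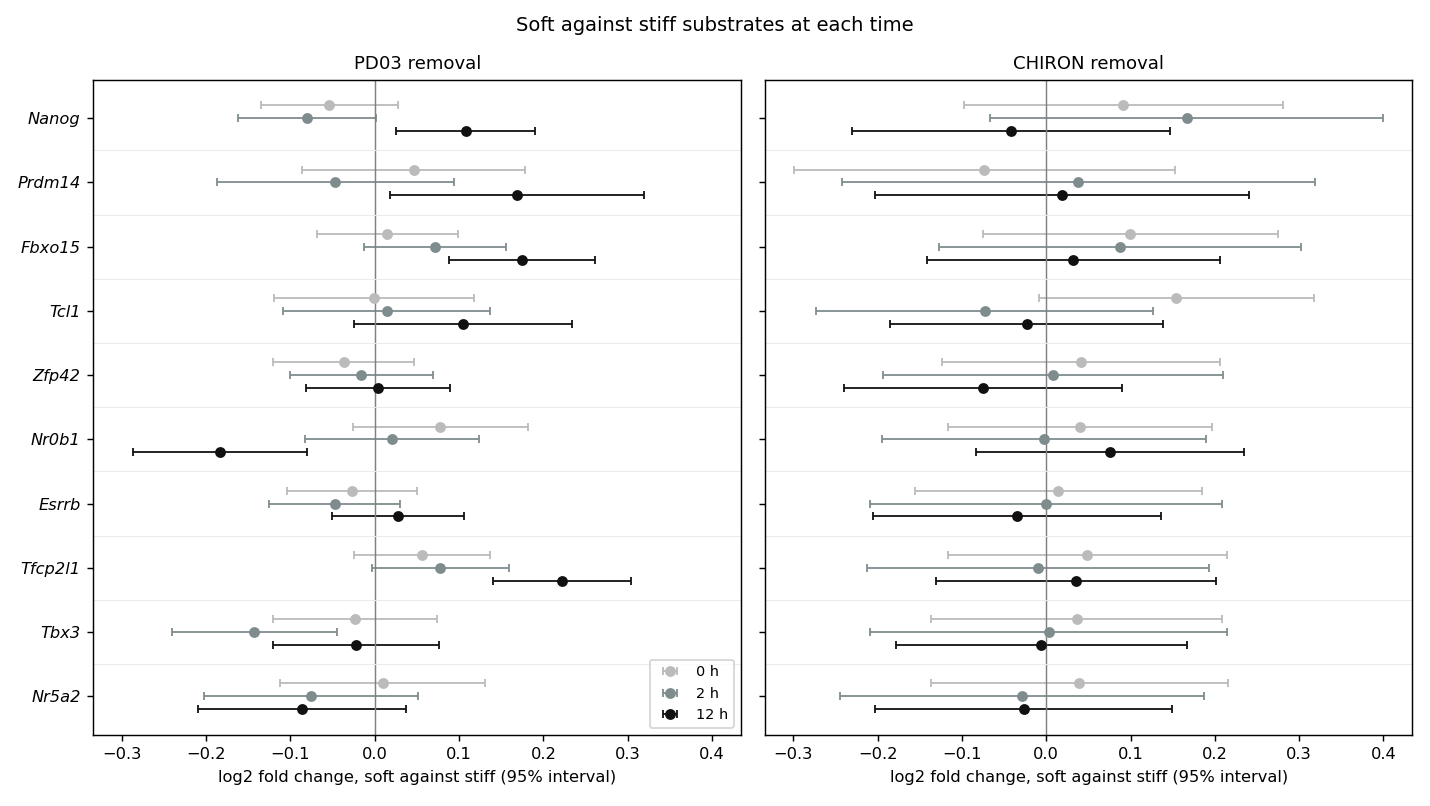
Log2 fold change of soft against stiff substrates (horizontal axis) for each of the 10 genes at 0 h (light grey), 2 h (dark grey) and 12 h (black) of PD03 removal, in the left panel, and of CHIRON removal, in the right panel, with 95% confidence intervals. Only *Tfcp2l1* at 0.22 and *Fbxo15* at 0.17, both at 12 h of PD03 removal, have an adjusted p under 0.05.

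The members stood at very different levels, and their order in 2i + LIF was not the same in the 2 experiments. Per kilobase of exon, in the 4 libraries at 0 h of PD03 removal, *Nanog* (479.5 to 505 CPM per kb) was highest, followed by *Zfp42* (303 to 318), *Tfcp2l1* (256 to 270.05), *Fbxo15* (186 to 194) and *Esrrb* (172 to 182). Below them stood *Tcl1* (79.9 to 91.7 CPM per kb) and *Nr0b1* (79.4 to 85.0), whose ranges overlapped, then *Tbx3* (32.0 to 34.3), *Prdm14* (25.1 to 27.3) and *Nr5a2* (20.05 to 22.0). Those were the only neighbours that overlapped. In the 4 libraries at 0 h of CHIRON removal, *Zfp42* (452 to 467 CPM per kb) stood above *Nanog* (227 to 266), *Esrrb* (174 to 181), *Tfcp2l1* (132 to 142) and *Tbx3* (128 to 133). *Nr0b1* (89.9 to 99.1 CPM per kb), *Fbxo15* (45.4 to 49.8), *Tcl1* (40.1 to 47.4), *Nr5a2* (27.4 to 31.3) and *Prdm14* (12.9 to 15.5) came after. Here *Tfcp2l1* overlapped *Tbx3*, and *Fbxo15* overlapped *Tcl1*. In the same medium, *Nanog*, *Tfcp2l1*, *Prdm14*, *Fbxo15* and *Tcl1* were higher in every 0 h library of the PD03 removal experiment than in any of the CHIRON removal experiment, and *Tbx3*, *Zfp42*, *Nr5a2* and *Nr0b1* were lower in every such library. *Fbxo15* had 626 to 652 CPM in the former and 153 to 167 CPM in the latter, and *Tbx3* had 212 to 227 CPM and 846 to 884 CPM. The labels give the experiments different library numbers and the counts stand in separate tables, so cells and processing cannot be told apart in these levels.

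The wider pathway was described from lists of named genes at 12 h, with values as log2 fold changes on soft and then stiff substrates. Of 10 ERK targets, 6 rose and 0 fell on each substrate without PD03, with medians of 1.11 (soft) and 1.28 (stiff), and *Spry4*, a feedback inhibitor of the receptor signal, rose most (2.34 and 2.39). Without CHIRON 0 rose, and 5 fell on soft and 4 on stiff substrates, with *Spry4* again the largest (-2.36 and -2.42). Of 11 Wnt targets tested in CHIRON removal 9 fell on each substrate, *T* the most (-4.82 and -5.91), and *Notum* rose (0.49 and 0.75). In PD03 removal 10 of the list were tested, 6 rose, led by *T* (1.38 and 1.57), and 1 fell, *Notum* (-0.21 and -0.42).

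Of 4 Tcf and β-catenin genes, 0 rose and 2 fell on soft and 1 rose and 2 fell on stiff substrates without PD03. *Ctnnb1*, which encodes β-catenin itself, was among those that fell (-0.18 on soft and -0.24 on stiff substrates, log2). *Tcf7l2* rose without CHIRON (0.70 and 0.75), as 1 of 2 that rose, with 0 falling. In the LIF chain of 4 genes, 2 rose and 1 fell on each substrate without PD03, and 0 rose and 2 fell without CHIRON. The receptor subunit gene *Il6st* fell after either removal (-0.27 and -0.27 without PD03, -0.46 and -0.40 without CHIRON). *Socs3*, a feedback inhibitor of Stat3, rose without PD03 (0.20 and 0.21).

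Among 12 other naive genes, 3 rose and 4 fell on soft and 3 rose and 6 fell on stiff substrates without PD03, from *Dppa3* (-1.40 and -1.59) to *Gbx2* (0.77 and 1.07). Without CHIRON 4 rose and 4 fell on soft and 3 rose and 3 fell on stiff substrates, and *Gbx2* had the largest fall (-2.67 and -2.45) and *Fgf4* the largest rise (1.28 and 1.15). Of 6 general pluripotency genes, 4 rose and 1 fell on each substrate without PD03, *Lin28a* rising (1.59 and 1.82) and *Sox2* falling (-0.23 and -0.16). Without CHIRON both were reversed, *Lin28a* at -2.12 and -1.83 and *Sox2* at 0.37 and 0.42, among 2 rises on soft and 4 on stiff substrates and 1 fall on each. Of 9 formative genes tested, which mark the step out of the naive state, 6 on soft and 5 on stiff substrates rose and 0 fell without PD03, led by *Sox4* (0.87 and 0.98). Without CHIRON 4 rose, led by *Otx2* (2.14 and 2.28), and 1 fell, *Lef1* (-2.27 and -1.42), a gene that is also in the Wnt list.

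The genes whose levels ran most like each member over the 23 libraries, after centring on the mean of each experiment and substrate, were picked by Pearson r among 13150 genes. These are descriptions, since the libraries share time points. *Nanog* ran with *Aurkc* (r = 0.966) and *Tmeff1* (0.962), and *Fbxo15* with *Ccdc43* (0.976), *Lrpap1* (0.969) and *Aqp3* (0.966). *Tfcp2l1* ran with *Pdxk* (0.977), *Lima1* (0.976) and *Fancm* (0.974), and *Prdm14* with *Wdr5* (0.968), *Taf5l* (0.943) and *Ralb* (0.942). *Zfp42* had *Prdx6* (0.957), *Dnajc6* (0.952) and *Gm13128* (0.950), and *Tcl1* had *Rnf7* (0.946), *Zwint* (0.946) and *Psmb1* (0.933). *Nr0b1* stood with *Bmp4* (0.945), *Myc* (0.942) and *Zfp36l2* (0.932). *Esrrb* stood with *Id3* (0.906), *Zfp553* (0.901) and *Tiparp* (0.893), *Nr5a2* with *Atf7* (0.892), *Nav1* (0.882) and *Cdk13* (0.881), and *Tbx3* with *Ier2* (0.863), *Morn4* (0.792) and *Dusp6* (0.784). The closest match was weakest for *Tbx3*, and *Myc* and *Dusp6* belong to the ERK target list.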

How the data were processed

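RNA from E14 mESCs on soft or stiff StemBond hydrogels was sequenced at 0, 2 and 12 h of PD03 or CHIRON removal. The values used are raw read counts per gene as the authors deposited them, in 1 table per experiment; the submitters' notes name Trim Galore, TopHat2 2.1.0, featureCounts 1.5.0, DESeq2 and the build mm10. The strand setting of the counting is not given in the sources used here. The PD03 table also has 12 columns that belong to other samples and were set aside, and 23 rows without a gene name were dropped. Groups came from the labels.

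Of 35022 and 48709 genes, 34824 and 48349 matched the GENCODE annotation given, and the 19287 and 21695 protein-coding ones entered the fits, as in the study's methods. edgeR 4.0.16 (R 4.3.3) quasi-likelihood tests were run with TMM factors, a filter of 10 counts (15 in total), a model of group means and Benjamini-Hochberg adjustment over all genes tested, at a threshold of 0.05. PD03 removal (12 libraries), CHIRON removal (11 libraries) and both (23 libraries, for PD03 minus CHIRON) were fitted separately, and all 10 members were tested in each. CPM are TMM-normalised, standard errors are the absolute log2 fold change divided by the square root of F, and intervals cover 95%. Levels between genes are CPM per kb of merged exons. Alternatives were DESeq2 1.42.0, no filter, all genes, only the groups compared, a replicate block, the 171333-count library, each library left out, and, added after seeing the data, limma 3.58.1 voom with a weight per experiment. The scripts were tested on simulated data. Promoters are RefSeq windows (GRCm38.p6), searched with Python 3.11.15.

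All 10 members were tested in every comparison, and all are named in the 12 h responses to each removal, while other comparisons name only some of them. In each other list, the text names the gene with the largest rise and the largest fall on stiff substrates among those called on both, and for each member the 3 genes with the highest r, of which 1 is not reported here. The members and lists were chosen with earlier results of these data known.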

Additional observations from a re-analysis of the deposited data

How the results depend on the processing

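Leaving out 1 library of the groups compared changed the number of members called as follows. In CHIRON removal at 12 h it was 3 to 5 against 6 on soft and 3 to 6 against 7 on stiff substrates. For soft against stiff at 12 h of PD03 removal it was 0 to 1 against 2, and for 2 h of PD03 removal on stiff substrates 1 to 2 against 2. For PD03 minus CHIRON removal at 2 h it was 0 to 2 against 1 on soft and 0 to 1 against 1 on stiff substrates, while at 12 h it was 8 and 6 throughout.

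Including the 171333-count library left 0 members in CHIRON removal at 12 h on both substrates, 0 in PD03 minus CHIRON removal at 2 h on both, and 1 on soft and 2 on stiff substrates at 12 h. It took the genes called in CHIRON removal at 12 h from 2603 to 457 on soft and from 2455 to 461 on stiff substrates (1376 to 1821 and 1295 to 1925 with 1 library left out), and those in the 12 h difference from 3091 to 940 and from 3464 to 1215; the cause was not tested. DESeq2 and limma voom each called 2 members in the soft 2 h difference, a fit of only the groups compared called 0 in the stiff 2 h difference, and a fit of all genes called 1 for soft against stiff at 12 h. Leaving out 1 library took the genes called at 12 h of PD03 removal on soft substrates from 3939 to between 2598 and 2927 and those called between substrates at 12 h from 104 to between 12 and 32 (188 with no filter). Counts of genes at 2 h, with 1 library left out and with no filter, were 138 to 153 and 388 against 263 on soft and 208 to 273 and 443 against 366 on stiff substrates of PD03 removal, 8 to 17 and 144 against 33 and 5 to 29 and 89 against 15 in CHIRON removal, and 48 to 118 and 230 against 120 and 76 to 209 and 258 against 115 in the difference. Between substrates they were 0 to 2 and 29 against 4 at 0 h and 5 to 13 and 73 against 18 at 2 h of PD03 removal. Where 0 genes were called, no filter gave 17 at 0 h, 54 at 2 h and 15 at 12 h between substrates in CHIRON removal, and 17 (PD03 removal) and 7 (CHIRON removal) for the difference in response. Leaving out 1 library could also give called genes at 0 h between substrates in CHIRON removal and for the difference in response in each experiment. It gave none between substrates at 2 h or 12 h of CHIRON removal. The median over all genes moved by less than 0.1 in every setting, and no other call of a member changed with the block than those given in the report.

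Of 78 values given singly, 8 of 956 alternatives turned the sign, none of them of a called value. With 1 library left out, these ran from -0.0015 to 0.025 for *Esrrb* at 12 h of PD03 removal on soft substrates. In CHIRON removal at 12 h they ran from -0.13 to 0.039 (0.017 among them) for *Nr5a2* on soft and from -0.066 to 0.14 on stiff substrates, and from -0.022 to 0.032 (-0.016 among them) for *Tbx3* on stiff substrates. At 2 h of CHIRON removal they ran from -0.092 to 0.028 for *Nr0b1* on stiff and from -0.16 to 0.041 for *Tbx3* on soft substrates. The other 122 values, from -0.25 to 0.29 on the log2 scale, turned sign in 120 of 1384 alternatives and were called in 3.

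Each comparison has only 2 same-numbered pairs. The mean correlation between deviations of same-numbered libraries was -0.0025 over 15 group pairs in PD03 removal (-0.053 to 0.11) and -0.020 over 10 in CHIRON removal (-0.11 to 0.071). No pairing by number was seen, and whether same-numbered libraries shared a culture or run cannot be told from these values. With the replicate block, members called were 8 and 9 in PD03 removal at 12 h, 5 and 5 in CHIRON removal, and 8 and 6 in the difference.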
